A study of Mus musculus with 5 samples.

Results

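The amino acid transporters of the proximal tubule were examined as a set of 10 genes, taken by name from the 35478 genes listed for each kidney: Slc6a19, Slc6a18, Slc7a7, Slc7a8, Slc7a9, Slc3a1, Slc3a2, Slc1a1, Slc7a13 and Slc7a5. All 10 were found once in each table, and all 10 passed the filter on low counts. RNA of the kidney cortex was sequenced from 2 Prdm16fl/fl UIRI mice, numbered 1 and 3, and from 3 Ksp-Cre/Prdm16fl/fl UIRI mice, numbered 1, 2 and 3, with 1 library per mouse. The former are called controls here and the latter Cre mice. Both groups were male, on a C57BL/6J;129 background by the strain label (the sample titles name C57BL/6J alone), 7 to 8 weeks old at surgery, and carried both floxed alleles of Prdm16 with loxP sites around exon 9. They differed by the Ksp-Cre transgene, in which the promoter of kidney-specific cadherin drives Cre recombinase in tubular epithelium. This promoter is known to be active along the distal nephron and collecting duct and less evenly in the proximal tubule. All 5 mice had unilateral ischemia-reperfusion injury (UIRI) of the left kidney, a clamp of 35 min at 38.5°C. The right kidney was removed on day 10 and the tissue was taken on day 11. No sham-operated kidney and no mouse with Cre but without the floxed alleles was analysed here, so the values describe injured kidneys of both genotypes.

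Amino acids filtered by the glomerulus are taken back almost completely by the proximal tubule, in which carriers of the brush border bring them into the cell and carriers of the basolateral membrane pass them on to the blood. Slc6a19 and Slc6a18 are sodium-coupled carriers of neutral amino acids that need a partner protein to reach the membrane, which in the kidney is Cltrn (collectrin). The Slc7 light chains reach it only with a heavy chain bound to them. Slc3a1 (rBAT) is the heavy chain of Slc7a9 in the brush border of the early tubule and of Slc7a13 in its last segment (S3), and Slc3a2 (4F2hc) is the heavy chain of Slc7a7, Slc7a8 and Slc7a5. Loss of SLC3A1 or SLC7A9 causes cystinuria, loss of SLC6A19 causes Hartnup disorder, and loss of SLC7A7 causes lysinuric protein intolerance.

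The promoters of Slc3a1 and Slc7a9 are shown because the products of these genes form 1 carrier while their counts went apart in Cre mice 2 and 3, as described below. They are RefSeq windows on GRCm38.p6 of 250 bases before and 50 bases after the start of transcription, both on the plus strand. They were searched on both strands for GTTAAT, a core of sites of HNF1, for CAAAGT, a core of sites of HNF4, and for TGATGNAA, the amino acid response element read by ATF4. HNF1 and HNF4 are transcription factors of the proximal tubule. Capitals mark a match.
Slc3a1, chr17:85028097-85028396: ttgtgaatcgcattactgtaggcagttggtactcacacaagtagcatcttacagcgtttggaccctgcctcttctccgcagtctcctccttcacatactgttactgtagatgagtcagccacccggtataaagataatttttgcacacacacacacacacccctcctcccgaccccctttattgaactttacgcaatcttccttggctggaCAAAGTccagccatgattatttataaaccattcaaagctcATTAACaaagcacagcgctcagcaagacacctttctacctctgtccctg
Slc7a9, chr7:35448842-35449141: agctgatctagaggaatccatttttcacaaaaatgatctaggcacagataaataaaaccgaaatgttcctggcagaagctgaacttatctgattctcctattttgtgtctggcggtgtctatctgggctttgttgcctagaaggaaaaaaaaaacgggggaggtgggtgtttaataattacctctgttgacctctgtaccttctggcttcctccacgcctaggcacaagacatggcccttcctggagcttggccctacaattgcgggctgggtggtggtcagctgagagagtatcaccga
The Slc3a1 window held CAAAGT, beginning 39 bases before the start, and GTTAAT on the reverse strand, beginning 2 bases after the start. No match lay in the Slc7a9 window shown, its window 1, or in its window 2, which overlaps it. This says only that these letters are not in them. Windows were found for 7 of the 10 genes, 12 windows in all, and of the others only windows of Slc7a7 held a match. Its window 1 held TGATGNAA at 2 places and CAAAGT at 1, its window 2 overlaps window 1 and held 1 of the same TGATGNAA matches, and its window 5 held GTTAAT. Of all 32851 windows in the table, 7.1% held GTTAAT, 14.4% held CAAAGT and 3.97% held TGATGNAA. A match is a run of letters and not a measured site.

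Counted reads came to between 14939040 and 16425161 per library. Prdm16 itself was at 25.3 and 20.02 in the controls and at 17.1, 17.0 and 18.0 in the Cre mice, in CPM, the count per 1000000 reads scaled by edgeR's TMM factors, a difference that did not pass (adjusted p = 0.259, edgeR's quasi-likelihood test over 16394 genes). The count takes in all exons of the gene, and exon 9 had no count of its own. Cre mouse 3 stood apart from the other 4 libraries. It was the highest of the 5 in 32.0% of the genes tested and the lowest in 32.0%, against 13.4% to 22.4% for the others. Values without it are therefore given beside the comparisons below. All 14 proximal tubule markers were expressed in every library and none was at 0. Xist was at 0.742 CPM or less in all 5 libraries and the Y-linked gene Ddx3y at 78.3 CPM or more, as in male tissue.

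The comparison of the 2 genotypes asks which carriers of the injured proximal tubule differed in level when Prdm16 was deleted in tubular cells. Both thresholds, a log2 fold change of 1 or more in size with an adjusted p below 0.05, were passed by 0 of the 10 transporters, where 0.708% of all genes tested passed. An unadjusted p under 0.05 was reached by 2, Slc7a7 and Slc7a13, both lower in Cre mice, where 11.2% of all genes were lower with such a p. The median log2 fold change of the 10 was -0.22, beside 0.038 for all genes, with 8 lower and 2 higher. In 3 of the 10 the 3 Cre mice all lay below both controls, where 21.3% of all genes did so, and in 1 they all lay above, where 20.3% did. Without Cre mouse 3, 2 of the 10 passed both thresholds, Slc7a13 and Slc6a19, both lower, where 4.53% of all genes passed in either direction and 3.1% were lower. An adjusted p under 0.05 alone was then reached by 6 of the 10, all lower, where 11.0% of all genes were lower with such a p. Only that mouse, when left out, changed a call among the 10. In a library of whole tissue, fewer cells of a type and less RNA per cell cannot be told apart.

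**Figure D1:**
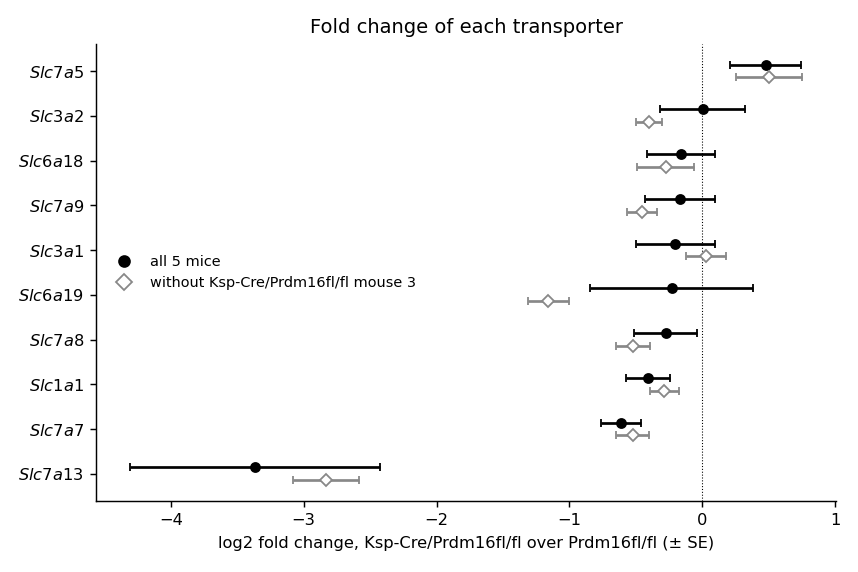
The log2 fold change of each transporter, Ksp-Cre/Prdm16fl/fl over Prdm16fl/fl, is plotted with its standard error from edgeR, with all 5 mice (filled circles) and without Ksp-Cre/Prdm16fl/fl mouse 3 (open diamonds). Slc7a13 lies apart from the rest at -3.37, and Slc6a19 moves from -0.23 to -1.16 and Slc3a2 from 0.0020 to -0.40 when that mouse is left out.

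Slc7a13 (AGT1), a carrier of cystine, aspartate and glutamate in the brush border of S3, had the widest difference of the 10. The files place it on the plus strand of chromosome 4, from 19818727 to 19842213, in a mouse build that they do not name. It was at 260 and 391 CPM in control mice 1 and 3. In Cre mice 1, 2 and 3 it was at 35.3, 55.9 and 3.13 CPM, which rest on 621, 947 and 47 reads. The groups did not overlap, and mouse 3 was the lowest of its group. The mean was 325 ± 92.6 CPM (SD, n = 2) against 31.4 ± 26.6 CPM (SD, n = 3), and the log2 fold change was -3.37 (SE 0.94, adjusted p = 0.140, edgeR's quasi-likelihood test), a level 10.3 times higher in the controls. Without mouse 3 the log2 fold change was smaller in size, -2.83, its SE was 0.25 and it passed (adjusted p = 4.63e-04, edgeR). The adjusted p in the other fits lay between 4.63e-04 and 0.644. Slc7a13 is known to be higher in male than in female mice, and the Xist and Ddx3y values above were those of male tissue in all 5.

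Slc7a9 (b0,+AT), the light chain that exchanges cystine and cationic amino acids for neutral ones, was at 112 and 122 CPM in the controls and at 77.3, 92.3 and 142 CPM in Cre mice 1, 2 and 3. Mice 1 and 2 were below both controls and mouse 3 above them, so the groups overlapped (log2 fold change -0.17, SE 0.26, adjusted p = 0.770, edgeR). Without mouse 3 the difference was -0.46 (SE 0.11) with an adjusted p = 0.0263 from edgeR, short of the fold threshold (0.0263 to 0.989 over all other fits). Its heavy chain Slc3a1 was at 231 and 266 CPM in the controls and at 214, 293 and 141 CPM in the Cre mice. Here mouse 3 was the lowest of the 5 and mouse 2 the highest (log2 fold change -0.20, SE 0.30, adjusted p = 0.753, edgeR), and without mouse 3 the value was 0.029. Slc7a9 lies on the plus strand of chromosome 7, from 35148152 to 35165459, and Slc3a1 on that of chromosome 17, from 85335775 to 85371669, in the coordinates of the files. Slc3a1 shares 606 exonic bases with Prepl on the opposite strand, and the strand used in counting was not given. Prepl was also lowest in mouse 3, with 1121 reads against 1489 to 1991 in the other libraries, and the part of shared reads in the Slc3a1 value was not tested.

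Levels of different genes were compared as TPM, the count per gene length scaled to the same total in each library. Of the light chains bound by Slc3a1, Slc7a13 made up 71.4% and 77.5% of the summed TPM of Slc7a13 and Slc7a9 in control mice 1 and 3, and 32.9%, 39.4% and 2.31% in Cre mice 1, 2 and 3. The shares did not overlap. Their sum was 391 and 492 TPM in the controls and 135, 178 and 152 TPM in the Cre mice, a range that did not overlap either. The ratio of Slc3a1 to both light chains together was 0.589 and 0.489 in the controls and 1.84, 1.91 and 0.966 in the Cre mice. For each of these 3 values a two-sided exact permutation test gave p = 0.2 (adjusted p = 0.309 over 17 ratios and sums), and 3 against 2 mice cannot give a smaller p, which 11 of the 17 had. The ratio of Slc3a1 to Slc7a9 alone was 2.06 and 2.18 in the controls and 2.75, 3.16 and 0.988 in the Cre mice, on both sides of the controls.

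**Figure D2:**
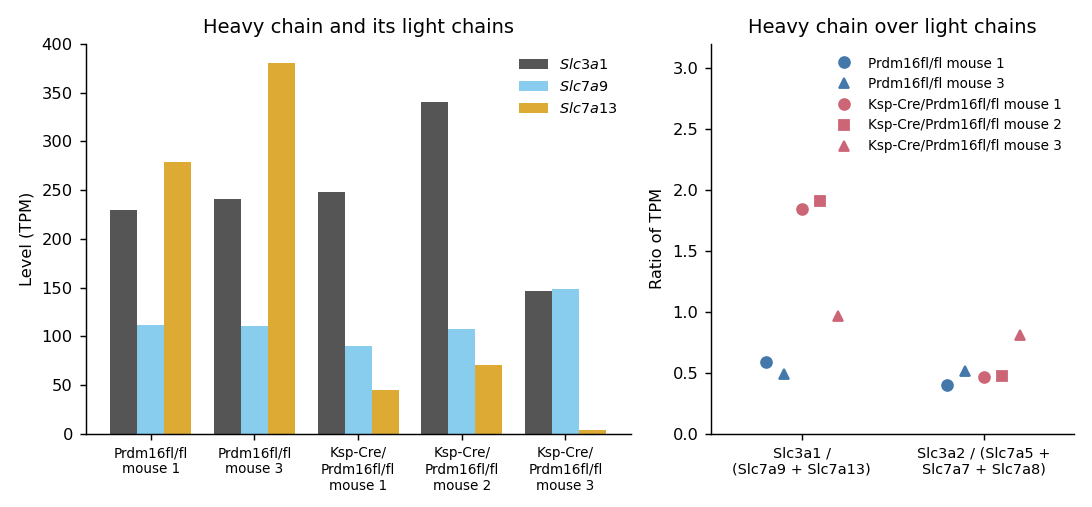
Left, the TPM of Slc3a1, Slc7a9 and Slc7a13 is shown as bars for each of the 5 mice. Right, the ratio of heavy chain to summed light chains in TPM is shown per mouse: for Slc3a1 the 3 Ksp-Cre/Prdm16fl/fl mice (0.966 to 1.91) lie above both controls, and for Slc3a2 the groups overlap.

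Slc6a19 (B0AT1), the main carrier of neutral amino acids in the brush border of the early tubule, was at 158 and 113 CPM in the controls and at 61.0, 60.1 and 225 CPM in Cre mice 1, 2 and 3. Mice 1 and 2 lay close together below both controls, and mouse 3 lay above both. With all 5 mice the log2 fold change was -0.23 (SE 0.61, adjusted p = 0.868, edgeR). Without mouse 3 it was -1.16 (SE 0.16), past both thresholds (adjusted p = 0.00230, edgeR, and up to 0.994 over the other fits). Without Cre mouse 1 or mouse 2, or without control mouse 1, it was above 0, at 0.076, 0.080 and 0.031. Slc6a19os, a gene on the opposite strand within the same span, had 200 reads in Cre mouse 3 and 7 to 15 in the other libraries. It shares 0 exonic bases with Slc6a19, and its part in the Slc6a19 value was not tested.

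Slc6a18 (B0AT3), which prefers glycine and alanine and is used further along the tubule, was at 637 and 934 CPM in the controls and at 525, 768 and 815 CPM in the Cre mice. The groups overlapped, and the 2 controls were as far apart as the Cre mice (log2 fold change -0.16, SE 0.26, adjusted p = 0.778, edgeR). Without Cre mouse 3 it was -0.28, and it was above 0 without control mouse 3 (0.14) or Cre mouse 1 (0.013). Both genes lie on the minus strand of chromosome 13, Slc6a18 from 73809869 to 73826142 and Slc6a19 from 73827864 to 73848899 in the coordinates of the files, with 1721 bases and 0 listed genes between them. These neighbours did not keep a fixed ratio. The ratio of Slc6a18 to Slc6a19 in TPM was 3.73 and 7.69 in the controls and 7.98, 11.9 and 3.36 in the Cre mice, which takes in both controls.

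Cltrn, the partner protein of these carriers, was at 1170 and 1264 CPM in the controls and at 538, 623 and 720 CPM in the Cre mice, all of them below both controls (log2 fold change -0.96, SE 0.17). This did not pass with all 5 mice (adjusted p = 0.0598, edgeR) and passed without mouse 3 (-1.07, adjusted p = 0.00132, edgeR). DESeq2 gave an adjusted p = 3.3e-05 at a fold under the threshold, the smallest over the other fits, whose largest was 0.526. Cltrn per summed Slc6a18 and Slc6a19, in TPM, was 4.51 and 3.72 in the controls and 2.83, 2.32 and 2.11 in the Cre mice, with no overlap (p = 0.2, exact permutation test, adjusted p = 0.309 over the 17).

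Of the basolateral carriers, Slc7a7 (y+LAT1), which passes cationic amino acids out in exchange for neutral ones and sodium, was at 88.4 and 71.2 CPM in the controls and at 56.8, 54.1 and 46.0 CPM in Cre mice 1, 2 and 3. All 3 lay below both controls, and mouse 3 was on the same side as the other 2. The log2 fold change was -0.61 (SE 0.15), with an unadjusted p = 0.00630 and an adjusted p = 0.113 from edgeR. With any 1 mouse left out it lay between -0.76 and -0.45. DESeq2 gave an adjusted p = 0.0413 and edgeR without mouse 3 an adjusted p = 0.0216, both at a fold under the threshold (0.0216 to 0.521 over all other fits). Slc7a7 shares 228 exonic bases with Oxa1l on the opposite strand, whose reads numbered 1072 to 1186 in all 5 libraries.

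Slc7a8 (LAT2), an exchanger of neutral amino acids, was at 161 and 128 CPM in the controls and at 103, 98.4 and 158 CPM in the Cre mice. Mice 1 and 2 were below both controls and mouse 3 lay between them (log2 fold change -0.28, SE 0.24, adjusted p = 0.571, edgeR), and without mouse 3 the value was -0.52 (adjusted p = 0.0244, edgeR, and up to 0.935 over the other fits). Slc7a7 and Slc7a8 both lie on the minus strand of chromosome 14, 302146 bases apart with 19 listed genes between. Slc7a5 (LAT1), an exchanger of large neutral amino acids that is scarce in the adult proximal tubule, was at 6.61 and 4.74 CPM in the controls and at 9.42, 6.62 and 7.66 CPM in the Cre mice. All 3 lay above both controls, mouse 2 only in the second decimal, and these values rest on 66 to 166 reads (log2 fold change 0.48, SE 0.27, adjusted p = 0.390, edgeR). Without mouse 3 the value was 0.50.

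The heavy chain Slc3a2 was at 194 and 200 CPM in the controls and at 153, 145 and 293 CPM in Cre mice 1, 2 and 3. Mice 1 and 2 lay below both controls and mouse 3 above, and the log2 fold change was 0.0020 (SE 0.32, adjusted p = 0.998, edgeR). Without mouse 3 it was -0.40 (adjusted p = 0.0256, edgeR, and up to 0.999 over the other fits). Slc3a2 to its summed light chains in TPM was 0.397 and 0.513 in the controls and 0.468, 0.475 and 0.813 in the Cre mice, highest in mouse 3. Slc7a5 made up 3.86% and 3.47% of the 3 light chains in the controls and 8.21%, 6.18% and 6.05% in the Cre mice, with no overlap (p = 0.2, exact permutation test, adjusted p = 0.309 over the 17). Slc7a7 made up 53.6% and 54.1% in the controls and 51.3%, 52.4% and 37.7% in the Cre mice.

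Slc1a1 (EAAT3), the carrier of glutamate and aspartate in the brush border, was at 246 and 266 CPM in the controls and at 196, 223 and 159 CPM in the Cre mice. All 3 lay below both controls, with mouse 3 the lowest (log2 fold change -0.41, SE 0.17, unadjusted p = 0.0510, adjusted p = 0.268, edgeR). Without mouse 3 it was -0.29 (adjusted p = 0.102, edgeR, and up to 0.797 over the other fits). It shares 0 exonic bases with other listed genes. Slc1a1 and Slc3a2 lie on chromosome 19, at 28812535 to 28891360 on the plus strand and at 8684246 to 8700733 on the minus strand.

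In TPM the order of levels differed between the groups mainly by the place of Slc7a13. In controls Slc6a18 was highest with 386 ± 77.5 TPM (SD, n = 2), followed by Slc7a13 with 330 ± 72.0 TPM, and the ranges of these 2 genes overlapped. Slc3a1 (235 TPM), Slc1a1 (149 TPM), Slc7a9 (111 TPM) and Slc6a19 (73.1 TPM) came next, each apart from the one before. The ranges of neighbours overlapped from Slc6a19 through Slc7a7 (51.9 TPM) and Slc3a2 (43.0 TPM) to Slc7a8 (41.0 TPM), and Slc7a5 (3.56 TPM) stood alone at the bottom. In Cre mice Slc6a18 was again first with 410 ± 79.2 TPM (SD, n = 3), Slc3a1 second with 245 ± 97.0 TPM, and Slc7a13 was eighth with 39.4 ± 33.6 TPM. There the ranges of all neighbours down to Slc7a8 overlapped, and only Slc7a5 (5.82 TPM) lay apart. TPM does not carry the TMM scaling, and on this scale Slc7a13 was below and Slc7a5 above both controls in every Cre mouse, whereas Slc7a7 and Slc1a1 overlapped.

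**Figure D3:**
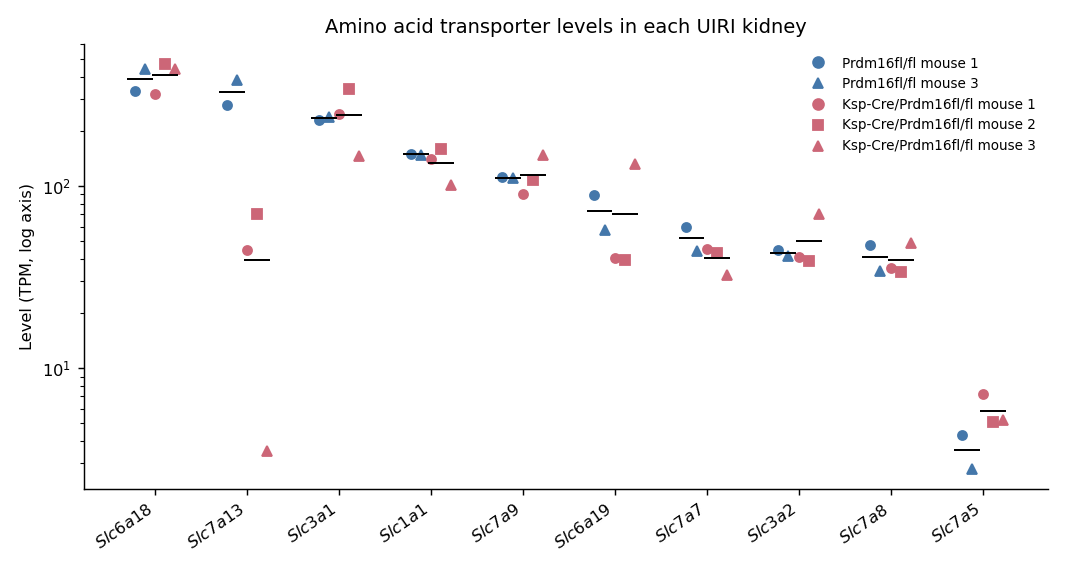
Each point is the TPM of 1 transporter in 1 mouse on a log axis, with blue points for Prdm16fl/fl mice, red points for Ksp-Cre/Prdm16fl/fl mice and black lines at the group means. Slc7a13 runs from 381 TPM in Prdm16fl/fl mouse 3 to 3.51 TPM in Ksp-Cre/Prdm16fl/fl mouse 3, and no other transporter spans as wide a range.

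Cre mouse 3 was at an end of the 5 libraries in 7 of the 10 genes. Of all genes tested, it was highest in 32.0% and lowest in 32.0%, so this is not particular to the transporters. Among the 10, mouse 3 was highest for Slc6a19, Slc7a9 and Slc3a2 and lowest for Slc7a7, Slc3a1, Slc1a1 and Slc7a13. As a difference in log2 CPM from the mean of the controls, it stood at 0.76 for Slc6a19, 0.58 for Slc3a2 and 0.29 for Slc7a9, where mice 1 and 2 stood at -1.13 and -1.15, at -0.36 and -0.44, and at -0.59 and -0.34. The median of this difference over the 10 genes was -0.48, -0.39 and 0.11 in mice 1, 2 and 3. The sum of the 10 was 1349 and 1501 TPM in the controls and 1012, 1306 and 1131 TPM in the Cre mice. With Slc7a13 left out, the other 9 summed to 1070 and 1120 TPM in the controls and to 968, 1236 and 1127 TPM in the Cre mice, and the groups overlapped.

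The transporters were set beside 14 other markers of the proximal tubule. All 14 were lower in Cre mice, with a median log2 fold change of -1.01. Both thresholds were passed by 3 of them, where 0.708% of all genes tested passed. In 11 the Cre mice all lay below both controls, where 21.3% of all genes did so. Without mouse 3, 8 of the 14 passed both thresholds, all lower, where 4.53% of all genes passed and 3.1% were lower. The summed level of the 14 was 20940 and 23620 CPM in the controls and 9492 to 14440 CPM in the Cre mice. Of the 10 transporters only Slc7a13 had a log2 fold change below the median of these markers. Slc3a2 and Slc7a5 lay above all 14 of them. In mouse 3 the markers had a median of -1.71 from the controls, lower than in mice 1 and 2 (-1.03 and -1.01), whereas the median of the transporters was 0.11. The 9 transporters without Slc7a13 came to 5.70% and 5.76% of the summed TPM of the 14 markers in the controls and to 9.98%, 11.2% and 8.17% in the Cre mice, with no overlap (p = 0.2, exact permutation test, adjusted p = 0.309 over the 17).

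Slc7a13 was also set beside 6 other markers of S3, whose median log2 fold change was -1.13 (-0.95 without Cre mouse 3), with 5 of them lower. Their summed level was 2035 and 2306 CPM in the controls and 1256, 1663 and 1769 CPM in the Cre mice. Atp11a made up most of it, at 1659 and 1638 CPM in the controls and at 915, 1262 and 1376 CPM in the Cre mice. The 6 did not go together: Slc22a7 was at 25.6 and 67.7 CPM against 3.07, 3.19 and 0.666 CPM, whereas Slc5a10 was at 177 and 291 CPM against 206, 229 and 305 CPM. Slc22a7 passed both thresholds with all 5 mice (log2 fold change -4.315, adjusted p = 0.0498, edgeR), 1 of the 6, where 0.708% of all genes passed. Without mouse 3, 3 of the 6 passed, all lower, where 4.53% of all genes passed. These were Slc22a7, Slc22a13 and Cyp7b1. The 8 markers of tubular injury were all higher, with a median of 1.08 (1.05 without mouse 3) and a summed level of 15200 and 15790 CPM in the controls and 32410 to 38320 CPM in the Cre mice. Most of this sum was Spp1, at 12280 and 13440 CPM in the controls and at 27020 to 33770 CPM in the Cre mice. Markers of other cells were also read, and 0 of those given here passed both thresholds. All 5 markers of the thick ascending limb were lower (median -0.71), summing to 3329 and 4261 CPM in the controls and 1246 to 2691 CPM in the Cre mice. All 4 of the distal convoluted tubule were lower (median -1.0), at 1897 and 1172 CPM against 328 to 1098 CPM, and Pvalb among them was at 0 in Cre mouse 3. Umod made up most of the sum of the thick ascending limb and Slc12a3 most of that of the distal convoluted tubule. All 5 of intercalated cells (median -0.73, 305 and 243 CPM against 149 to 195 CPM) and all 5 of podocytes (median -0.64, 687 and 527 CPM against 383 to 430 CPM) were lower as well. All 5 of red blood cells were higher, with a median of 3.93 and a summed level of 6.67 and 10.8 CPM in the controls and 40.5 to 151 CPM in the Cre mice. The part of these shifts in the transporter values was not tested.

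**Figure D4:**
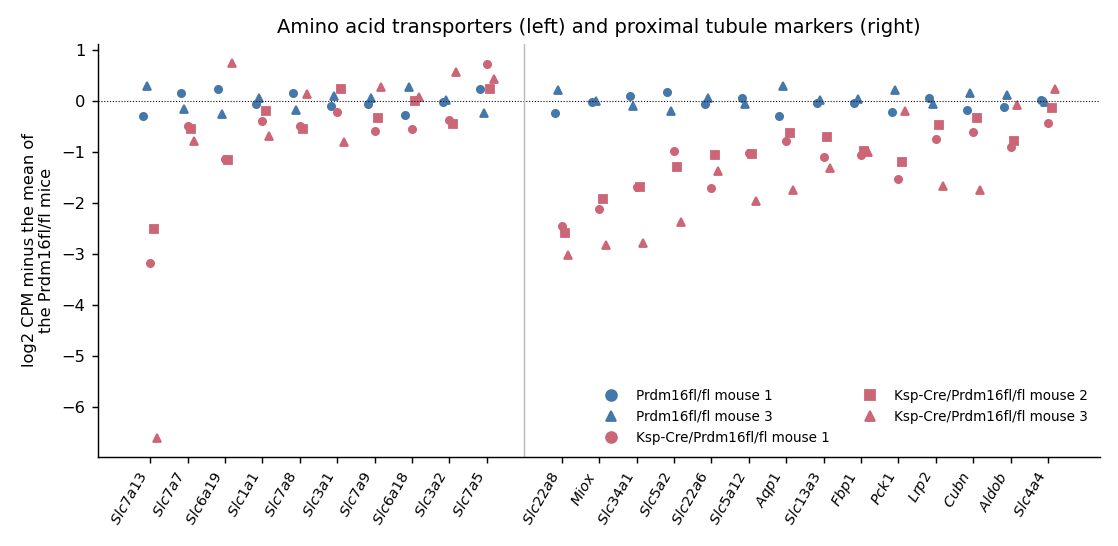
The difference in log2 CPM from the control mean is plotted per mouse for the 10 transporters (left) and the 14 proximal tubule markers (right). All Ksp-Cre/Prdm16fl/fl points of 11 markers lie below both controls, as do those of 3 transporters, where 21.3% of all genes tested lay so. Ksp-Cre/Prdm16fl/fl mouse 3 (red triangles) lies above the controls for Slc6a19, Slc7a9 and Slc3a2.

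The other amino acid transporters of the plasma membrane and lysosome were listed by family, 46 genes in all, of which 38 passed the filter on low counts. None of the 38 had an adjusted p under 0.05 in edgeR with all 5 mice, where 0.976% of all genes did, and 9 had an unadjusted p under 0.05, 4 lower and 5 higher, where 18.8% of all genes had one. Their median log2 fold change was 0.14, with 12 lower and 26 higher, beside 8 lower and 2 higher among the 10 proximal tubule carriers. The median difference from the controls was 0.043, 0.17 and 0.16 in Cre mice 1, 2 and 3. Without Cre mouse 3 the median log2 fold change was 0.080 over 37 genes tested. Of these 3 were lower with an adjusted p under 0.05, where 11.0% of all genes were lower with such a p. Another 4 were higher with such a p, and the share of all genes in that direction is not given here.

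Among those with a mean of at least 1 on the log2 CPM scale, the 4 lowest were Slc6a20b, Slc6a13, Slc38a4 and Slc38a3. Slc6a20b was at 137 and 156 CPM in the controls and at 57.8, 77.0 and 14.7 CPM in the Cre mice. The groups did not overlap and mouse 3 was again lowest (log2 fold change -1.56, SE 0.59, adjusted p = 0.237, edgeR). Without mouse 3 Slc6a20b passed both thresholds, at -1.12 (adjusted p = 0.00188, edgeR, and up to 0.763 over the other fits). It is a near copy of Slc6a20a, so its reads may have been split between both. Slc6a20a was at 34.45 and 37.6 CPM in the controls and at 38.77, 47.85 and 30.58 CPM in the Cre mice. These groups overlapped (log2 fold change 0.118, adjusted p = 0.79, edgeR). Slc6a13, a carrier of GABA and taurine, was at 105 and 130 CPM against 56.3, 71.8 and 59.2 CPM, with no overlap (log2 fold change -0.92, SE 0.16, adjusted p = 0.0564, edgeR). Without mouse 3 it was -0.88 (adjusted p = 0.00503, edgeR, and 3.59e-04 to 0.525 over all other fits), short of the fold threshold. Slc38a4 had a log2 fold change of -0.76, and of -0.72 without mouse 3. Slc38a3, a glutamine carrier of the basolateral membrane, was at 103 and 179 CPM against 63.3, 87.8 and 148 CPM, with overlap and a log2 fold change of -0.50 (adjusted p = 0.531, edgeR). That value was -0.90 without mouse 3 (adjusted p = 0.0355, edgeR, and up to 0.986 over the other fits) and -0.050 without control mouse 3.

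The 4 highest were Slc7a11, Slc43a1, Slc38a2 and Slc7a2. Slc38a2 (SNAT2), a sodium-coupled carrier of small neutral amino acids found in most cells, was at 125 and 115 CPM in the controls and at 206, 157 and 285 CPM in the Cre mice, all above both controls (log2 fold change 0.84, SE 0.26, adjusted p = 0.164, edgeR). Without mouse 3 it was 0.60 (adjusted p = 0.0219, edgeR, and up to 0.720 over the other fits), short of the fold threshold. Slc7a11 (xCT), the cystine and glutamate exchanger, was at 1.35 and 0.502 CPM against 1.76, 1.71 and 4.80 CPM (log2 fold change 1.55, SE 0.68, adjusted p = 0.293, edgeR). Its value ran from 0.89 without Cre mouse 3 to 2.43 without control mouse 1. Slc7a2, a carrier of cationic amino acids, was at 21.2 and 19.7 CPM in the controls, at 41.8 and 43.1 CPM in Cre mice 1 and 2, and at 15.1 CPM in mouse 3, on the other side of the controls. Its log2 fold change was 0.71 with all 5 mice (adjusted p = 0.442, edgeR) and 1.06 without mouse 3, where it passed both thresholds (adjusted p = 9.23e-04, edgeR, and up to 0.868 over the other fits). Slc43a1 was at 1.08 and 1.58 CPM against 1.42, 1.95 and 4.13 CPM, with overlap, and its log2 fold change of 0.90 was 0.35 without mouse 3.

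**Figure D5:**
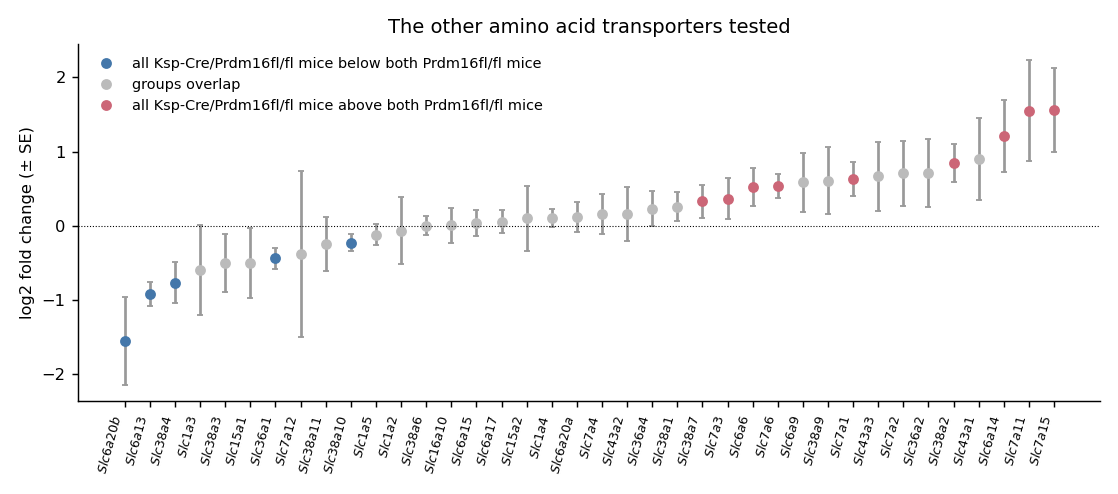
The log2 fold change of the 38 other amino acid transporters that passed the filter, Ksp-Cre/Prdm16fl/fl over Prdm16fl/fl, is plotted with its standard error from edgeR and ordered from lowest to highest. Blue points mark genes with all 3 Ksp-Cre/Prdm16fl/fl values below both controls (5 genes), where 21.3% of all genes tested lay so. Red points mark those with all 3 above (9 genes), where 20.3% of all genes lay so. Gray points mark the 24 in which the groups overlapped.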

How the data were processed

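RNA-seq data of 5 kidneys, 2 of Prdm16fl/fl UIRI mice and 3 of Ksp-Cre/Prdm16fl/fl UIRI mice, were grouped by the genotype in the sample labels. Paired-end reads of 150 bp were sequenced and cleaned of adapters and low quality by the authors, and the deposited count is the number of reads on each gene, not normalized. The authors also deposited the TPM and the FPKM, which scale the count by merged exon length and library total, and both were recomputed from the counts with differences of at most 4.7e-06. The submitters' processing notes name CASAVA, featureCounts 2.0.1 and DESeq2 1.16.1. The build they name is a human one, so the build of the mouse coordinates, the aligner and the strand setting of the counting are not given in the sources used here. Genes that overlap on the opposite strand or have near copies are uncertain. Positions of genes are those of the deposited files, and promoter windows are those of RefSeq on GRCm38.p6.

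Of 35478 genes listed, 9845 were at 0 in every library. The broken lines of 5 genes were rejoined. Counts of 16394 genes kept by filterByExpr were scaled with TMM and tested with the quasi-likelihood test of edgeR 4.0.16 (R 4.3.3) without covariates, with Benjamini-Hochberg adjustment over all of them. A gene passed both thresholds if its adjusted p was below 0.05 and its log2 fold change 1 or more in size. The 10 members and the gene lists were chosen with earlier results of these data known, as were the sex-linked genes, which were added last. The genes named are the 10 members, Prdm16 and Cltrn, the other amino acid transporters with an adjusted p under 0.05 and the 4 highest and 4 lowest of them with a mean log2 CPM of 1 or more, and the 3 genes nearest to each member in pattern. A further gene under this rule is not reported here. Genes named beyond these were picked with their values in view. Ratios were taken in TPM within each mouse and compared with a two-sided exact permutation test. The 3 against 2 mice allow 10 splits, so p cannot be under 0.2. Counting error is largest for the lowest member, Slc7a5, at 66 to 166 reads.

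Alternatives were DESeq2 1.42.0, no filter, at least 10 counts in every library, library size or upper quartile scaling, DESeq2 size factors in edgeR, each mouse left out, the mouse number as a block, limma 3.58.1 on log2(FPKM + 1) and log2(FPKM + 0.1), scales that understate changes of low genes, for genes that reached an FPKM of 1 in 2 libraries or for all, and removal of each library's trend on gene length (loess, span 0.3). Removal of a trend on length and GC content, for 15223 genes, was added after the values were seen. The tests were checked on simulated counts. Differences from the mean of each group had correlations near 0 between mice of the same number (r = 0.00102 for mice 1 and -0.022 for mice 3). With 2 controls, the differences of 1 mirror those of the other. The values therefore cannot decide whether the numbers pair the mice. No 2 libraries were duplicates. Chi-square per degree of freedom was 9.89 for the closest, which were Ksp-Cre/Prdm16fl/fl mice 1 and 2. Python 3.11.15, pandas 2.3.3 and scipy 1.17.1 were used for tables and exact tests, and matplotlib 3.10.9 for figures.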

Additional observations from a re-analysis of the deposited data

How the results depend on the processing

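With the mouse number as a block, over the 4 mice numbered 1 and 3 or over all 5, 0 genes passed of all tested (2047 and 2061 at an unadjusted p under 0.05), and none of the 10 transporters changed its call. No setting other than leaving out Cre mouse 3 brought a transporter past both thresholds. With each mouse left out in turn, between 0 and 2 of the 10 transporters and between 0 and 2 of the other amino acid transporters passed, and between 0 and 733 of all genes (0 to 231 higher, 0 to 502 lower). The count of all genes was 0 without each of the other 4 mice, with 1330 to 2514 genes at an unadjusted p under 0.05, where edgeR with all 5 mice gave 116 (13 higher, 103 lower). DESeq2 gave 495 (116 higher, 379 lower), no filter 287 (37 and 250), library size scaling 46 (34 lower), limma on log2(FPKM + 1) 55 (41 lower) or without a filter 0 (0 and 0, with 3887 at an unadjusted p under 0.05), limma on log2(FPKM + 0.1) 43 (30 lower), removal of the length trend 27 (2 and 25) and of length and GC 39 (5 and 34). Of the genes that passed, 11.2% were higher with TMM scaling, 26.1% with library size scaling and 23.4% with DESeq2. Library size scaling moved the median of all genes by 0.111 on the log2 scale and that of the 10 transporters from -0.22 to -0.12. The median of the 10 kept its sign in every setting, from -0.43 without Cre mouse 3 to -0.084 without mouse 1. The median of the other transporters was 0.24 with library size scaling, 0.21 with limma on log2(FPKM + 0.1) and 0.080 to 0.25 with each mouse left out. Slc7a13, Slc7a7, Slc7a8, Slc1a1 and Slc7a5 kept their direction in all settings. With each mouse left out the log2 fold change ran from -1.16 to 0.080 for Slc6a19 (0.031, 0.076 and 0.080 without control mouse 1 and Cre mice 1 and 2), from -0.41 to 0.14 for Slc6a18 (0.013 without Cre mouse 1), from -0.46 to 0.0090 for Slc7a9, from -0.48 to 0.029 for Slc3a1 and from -0.40 to 0.18 for Slc3a2 (-0.023 without control mouse 1). Slc3a2, near 0 with all 5 mice, was also below 0 with at least 10 counts (-0.0040), DESeq2 size factors in edgeR (-0.0010), the length trend removed (-0.053) and length and GC removed (-0.083). The cause of these shifts was not tested.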

Other observations

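For each transporter the genes of nearest pattern were those with the smallest root mean square difference of log2 CPM, each gene centred on its own mean, over the 5 libraries. With 5 points shared by all genes this is a description of these libraries. Nearest to Slc7a13 was Mep1b, the beta subunit of meprin, a metalloprotease of the brush border, at a difference of 0.287. Mep1b was at 71.1 and 135 CPM in control mice 1 and 3 and at 12.1, 21.7 and 0.600 CPM in Cre mice 1, 2 and 3, so it had the same order over the 5 mice as Slc7a13. Next came Gm36139 (0.326) and Slc22a22 (0.405), a kidney carrier of prostaglandins, at 57.9 and 74.0 CPM against 9.99, 11.1 and 1.20 CPM. The own spread of Slc7a13 was 2.45 on the same scale.

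Slc7a9 was nearest to A530020G20Rik (0.034), Bnip3 (0.034) and Fnip2 (0.038). Bnip3, a mitophagy receptor of the outer mitochondrial membrane, was at 175 and 198 CPM in the controls and at 124, 141 and 220 CPM in the Cre mice. Slc3a2 was nearest to Aspscr1 (0.052), Got1 (0.052) and Prg4 (0.055). Got1, the cytosolic aspartate aminotransferase, was at 153 and 157 CPM against 131, 116 and 227 CPM. Among the transporters themselves the nearest pair was Slc7a9 and Slc3a2, at 0.152, which do not form a dimer with each other.

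Slc3a1 was nearest to Dcaf4 (0.034), H2-DMa (0.050) and Trps1 (0.056), Slc7a7 to Gm11837 (0.027), Bpnt1 (0.045) and Ogdh (0.050), and Slc7a8 to 9330133O14Rik (0.059), Bach2 (0.069) and Tex2 (0.075). Ogdh, a subunit of the 2-oxoglutarate dehydrogenase complex, was at 649 and 554 CPM in the controls and at 433, 436 and 370 CPM in the Cre mice. Slc6a18 was nearest to Sim2 (0.066), Clrn3 (0.080) and Spsb2 (0.097), Slc1a1 to Fra10ac1 (0.024), Osbpl8 (0.032) and Dmxl1 (0.032), and Slc7a5 to Pik3r3 (0.052), Ovol2 (0.063) and Otud3 (0.076). Slc6a19 was nearest to LOC108167577 (0.198), Depp1 (0.212) and Setmar (0.233), beside an own spread of 0.751.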
